A study of Mus musculus with 4 samples.

Results

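A pair of altered Sox2 proteins, Halo-Sox2M with a changed HMG box and Halo-Sox2D with the HMG box kept and the C-terminal part lost, were compared by the places where ChIP-exo peaks were called for them in D3 mouse embryonic stem cells, an established cell line. Halo-Sox2M carries the changes labelled M47G, F50 and M51G, and the labels give no replacing residue for F50. Halo-Sox2D consists of Sox2 residues 1 to 120. Both are fusions to HaloTag, a protein that forms a covalent bond with a chloroalkane ligand, and both were isolated on HaloLink resin, which carries that ligand. So was Halo-Sox2, the fusion without these changes. The remaining library held endogenous Sox2 isolated with an antibody. Every group was 1 library from cells grown under a regular culture protocol, so no difference has a replicate check and no p-value is given. The labels name no promoter, clone or expression level for the fusions.

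ChIP-exo trims precipitated DNA with an exonuclease up to the crosslinked protein, and each library is a list of narrow peaks of 1 to 20 bp with no score and no read number. Read depth is therefore unknown, and neither strength of binding nor the effect of depth or calling threshold on list length can be read from the lists. Peaks on mitochondrial DNA and on unplaced or random sequence were dropped, as was every bin of 100 kb that held 15 or more peaks in any of the 4 lists (11 bins). This left 954 of 1711 Halo-Sox2M peaks (55.8%) and 13241 of 13833 Halo-Sox2D peaks (95.7%), 14195 peaks in all of the 29255 in the series. Of the dropped peaks, 302 Halo-Sox2M and 310 Halo-Sox2D peaks lay on mitochondrial or unplaced sequence, and 455 and 282 in dense bins. Before this step the lists differed 8.08-fold in length, and after it 13.9-fold, Halo-Sox2D being the longer. For reference, 5829 Halo-Sox2 and 6364 endogenous Sox2 peaks remained. All intervals are 95% intervals over peaks or genes (Wilson for shares, Newcombe for differences). They cover only the error of counting and treat neighbouring peaks as independent, which these need not be.

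Sox2 is one of the factors that hold embryonic stem cells in the pluripotent state, together with Oct4, the product of Pou5f1. Its HMG box binds the minor groove of DNA at a short core, written here as ACAAT with its reverse complement ATTGT, and bends the DNA there. The part of Sox2 that follows the HMG box carries its transactivation region.

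To show what shared and Halo-Sox2D-bound promoters look like, a few sequences are given, all taken from the RefSeq promoter table of GRCm38.p6 (the assembly of mm10), which covers 250 bp before to 50 bp after each gene start. The first set holds the promoters in which peaks of both altered proteins lay closest before the start. Capitals mark the bases under a Halo-Sox2M or Halo-Sox2D peak. Nit2 encodes an omega-amidase, and its window is chr16:57167365-57167413 on the minus strand. Nme1 encodes a nucleoside diphosphate kinase, and its window is chr11:93968327-93968424 on the minus strand. Mfsd12 encodes a transporter protein of lysosomes, and its window is chr10:81357385-81357456 on the plus strand.
Nit2: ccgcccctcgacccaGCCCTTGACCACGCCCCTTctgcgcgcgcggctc
Nme1: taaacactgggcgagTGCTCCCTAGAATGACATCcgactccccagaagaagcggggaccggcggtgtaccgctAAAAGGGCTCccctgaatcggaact
Mfsd12: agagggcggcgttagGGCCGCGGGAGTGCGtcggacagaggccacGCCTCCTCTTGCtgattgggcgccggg
At Nit2 the Halo-Sox2M peak, of a single base at position -53, lay inside the Halo-Sox2D peak at -66 to -48. At Nme1 the Halo-Sox2M peak at -137 to -124 overlapped a Halo-Sox2D peak at -135 to -119, and another Halo-Sox2D peak lay at -79 to -70. At Mfsd12 the Halo-Sox2M peak lay at -91 to -77 and the Halo-Sox2D peak at -61 to -50. None of these 3 sequences holds the Sox core. Of all 11 promoters with peaks of both proteins, 3 hold it in the stretch that spans the peaks, those of Cd164, Cep57l1 and Rfx4. At Rps9, another of the 11, the core lies outside that stretch but within 25 bases of the Halo-Sox2M peak centre.

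The next set holds the Halo-Sox2D peaks in promoter windows of the gene lists described further on that had the Sox core within 25 bases of the peak centre. They are 4 of 14 such peaks, picked for the core, and the other 10, at Map2, Arid1a, Mtf2, Stat3, Etv5 and Tbp, lacked it. Capitals mark the core. Trim28, the KAP1 corepressor, has its window at chr7:13024035-13024085 (plus strand). Hes5, a Notch-responsive repressor, has it at chr4:154960721-154960771 (plus strand). Neurog1, a proneural factor, has it at chr13:56252197-56252247 (minus strand). Tubb3, the neuronal beta-tubulin, has it at chr8:123411395-123411445 (plus strand).
Trim28: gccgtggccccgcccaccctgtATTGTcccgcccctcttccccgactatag
Hes5: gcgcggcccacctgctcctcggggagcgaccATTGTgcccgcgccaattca
Neurog1: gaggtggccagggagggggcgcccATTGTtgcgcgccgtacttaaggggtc
Tubb3: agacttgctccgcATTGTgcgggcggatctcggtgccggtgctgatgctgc
The peak centres lay 92 bp before the start of Trim28, 177 bp before Hes5, 42 bp before Neurog1 and 133 bp before Tubb3. No Halo-Sox2M peak lay within 50 kb of these 4 genes.

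The places of the altered proteins coincided for a minority of either list. Of the 954 Halo-Sox2M peaks, 123 had a Halo-Sox2D peak centre within 500 bp (12.9%, 10.9 to 15.2%), where stretches within 500 bp of Halo-Sox2D centres make up 0.439% of chromosome length. In the other direction 163 of 13241 Halo-Sox2D peaks had a Halo-Sox2M centre that near (1.23%, 1.06 to 1.43%), against 0.0311% of length. Shared peaks were close together, with a median distance of 60 bp from a Halo-Sox2M peak to the nearest Halo-Sox2D peak (quartiles 15 and 174.5 bp). Overlap of at least 1 bp was found for 20 Halo-Sox2M peaks (2.10%) and 19 Halo-Sox2D peaks (0.143%).

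The length of the Halo-Sox2D list bears directly on this share. With Halo-Sox2D thinned at random to 954 peaks, 1.68% of Halo-Sox2M peaks (16.0 peaks) are expected to have a Halo-Sox2D centre within 500 bp, and 100 draws gave 0.629 to 2.73%. The Halo-Sox2D share is not altered by thinning in expectation, and 100 draws gave 0.419 to 1.99% around 1.23%. The peaks kept by random thinning need not be those that shallower sequencing or stricter calling would retain. Halo-Sox2M peaks lay near Halo-Sox2 in 202 cases (21.2%) and near endogenous Sox2 in 136 (14.3%), although both of those lists are shorter than that of Halo-Sox2D. Halo-Sox2D peaks lay near Halo-Sox2 in 1273 cases (9.61%) and near endogenous Sox2 in 1637 (12.4%). All 3 lists set against Halo-Sox2M differ in length and in their own clustering, so the order of these shares is a description only.

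**Figure D1:**
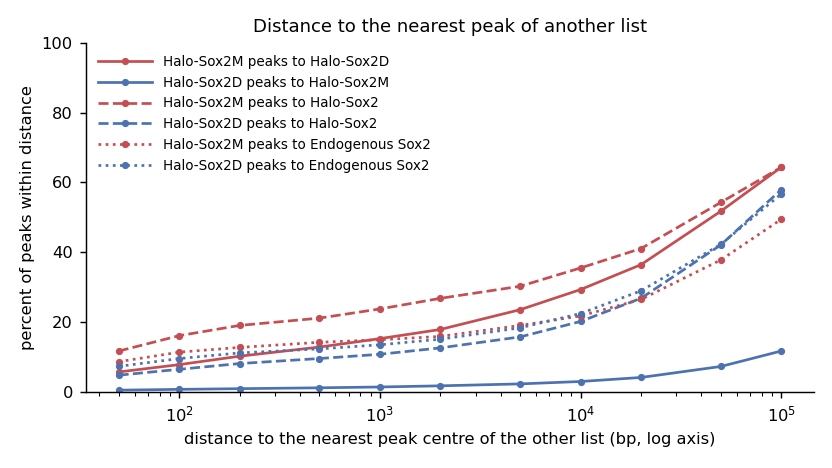
Percent of peaks (vertical axis) whose nearest peak centre in another list lies within the distance on the horizontal axis (bp, log axis), in red for Halo-Sox2M peaks and in blue for Halo-Sox2D peaks; solid lines run to the other altered protein, dashed lines to Halo-Sox2 and dotted lines to endogenous Sox2. The solid red line passes 15.3% at 1 kb and 64.4% at 100 kb, while the solid blue line reaches 11.8% at 100 kb.

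Peaks shared by the altered proteins were more often also peaks of Sox2 without these changes. Of the 123 Halo-Sox2M peaks near Halo-Sox2D, 60 also had an endogenous Sox2 centre within 500 bp (48.8%), against 76 of the 831 without Halo-Sox2D (9.15%), a difference of 39.6 points (30.7 to 48.5). For Halo-Sox2 the shares were 33.3% (41 of 123) and 19.4% (161 of 831), a difference of 13.96 points (5.74 to 23.0). On the Halo-Sox2D side 56.4% of the 163 peaks near Halo-Sox2M had an endogenous Sox2 centre, against 11.8% of the other 13078, a difference of 44.6 points (36.9 to 52.0). The Halo-Sox2 shares there were 36.8 and 9.28% (27.5 points, 20.5 to 35.2). With bins of 5 or more peaks dropped as well, endogenous Sox2 lay near 24 of 69 Halo-Sox2M peaks that had Halo-Sox2D (34.8%) and near 39 of 644 that did not (6.06%), so the difference was 28.7 points (18.3 to 40.6).

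Joining Halo-Sox2M and Halo-Sox2D peaks whose centres lay within 500 bp gave 12593 sites, of which 737 held Halo-Sox2M alone, 11752 Halo-Sox2D alone and 104 both. Most shared sites were small, 71 of them with 1 peak of each protein, and 8 held 5 or more peaks. The sites were not evenly spread. Several lay close together on chromosome 8, from 19698129 to 20583732, on both sides of a dropped dense bin (20300001 to 20400000). The site with most peaks, 4 Halo-Sox2M and 8 Halo-Sox2D, was among them. Of the 104, 23 also held both Halo-Sox2 and endogenous Sox2, 9 held Halo-Sox2 and 21 endogenous Sox2 without the other, and 51 held neither. Shared sites lay within 1 kb of an end of a protein-coding gene in 29 of the 104 cases. Counted as peaks, 24.4% of Halo-Sox2M peaks near Halo-Sox2D and 26.4% of Halo-Sox2D peaks near Halo-Sox2M lay there. Over all peaks of the 2 lists the shares were 15.8 and 21.7%. Of Halo-Sox2M peaks at gene ends 19.9% (30 of 151) had a Halo-Sox2D centre within 500 bp, against 11.6% (93 of 803) away from them, a difference of 8.29 points (2.21 to 15.6). The share of Halo-Sox2D peaks near Halo-Sox2M was 1.50% at gene ends and 1.16% away from them, a difference of 0.338 points (-0.106 to 0.884).

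Halo-Sox2M peaks were less concentrated at protein-coding genes than Halo-Sox2D peaks. Within 1 kb of either end of such a gene lay 15.8% of Halo-Sox2M peaks (13.6 to 18.3%) and 21.7% of Halo-Sox2D peaks (21.02 to 22.4%), a difference of -5.88 points (-8.18 to -3.34). Both shares exceeded the 2.91% of chromosome length in those windows, and both exceeded the shares of Halo-Sox2 (10.8%) and endogenous Sox2 (6.77%). Inside protein-coding genes the shares were 32.8% for Halo-Sox2M (29.9 to 35.9%) and 52.0% for Halo-Sox2D (51.2 to 52.9%), a difference of -19.2 points (-22.3 to -16.1). The bodies of protein-coding genes make up 37.9% of chromosome length. Halo-Sox2M thus lay inside protein-coding genes less often than length alone gives, and Halo-Sox2D more often. Halo-Sox2 and endogenous Sox2 had 45.6 and 43.2%. Thinning does not shift such shares in expectation, and 100 draws of 954 Halo-Sox2D peaks gave 18.03 to 24.6% at gene ends and 48.5 to 55.7% inside genes, each above the Halo-Sox2M value. With the ends of all annotated genes in place of protein-coding ones, the difference at gene ends shrank to -2.28 points (-5.07 to 0.695). Inside any annotated gene, 45.8% of length, lay 45.1% of Halo-Sox2M peaks (41.9 to 48.2%) and 61.3% of Halo-Sox2D peaks. That Halo-Sox2M interval includes the share of length, and the difference was -16.3 points (-19.5 to -13.0).

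**Figure D2:**
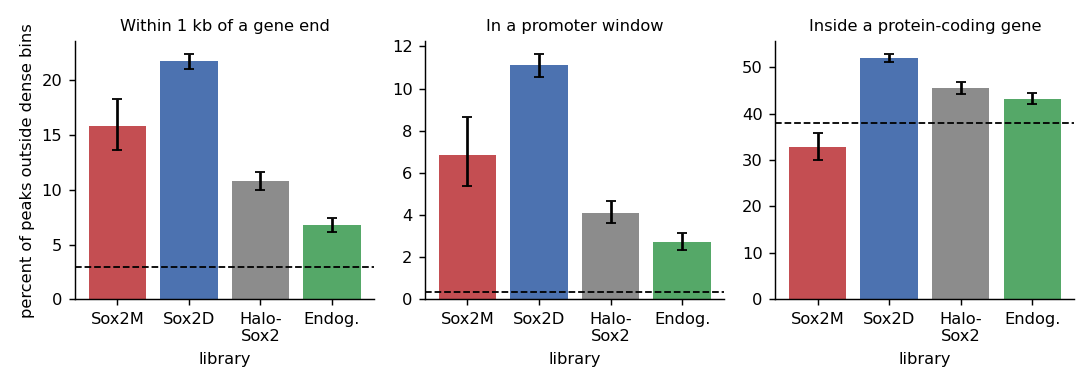
Percent of peaks outside dense bins (vertical axis) within 1 kb of an end of a protein-coding gene, in a promoter window and inside a protein-coding gene, with 1 bar per library and 95% Wilson intervals (counting error only); dashed lines give the share of chromosome length. Halo-Sox2D stands highest in every panel, and Halo-Sox2M lies below the dashed line inside protein-coding genes, at 32.8%.

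The altered proteins differed at gene starts, and at the far ends of genes the interval of their difference included 0. Strand was known for 17492 protein-coding genes through the promoter table, which has no entries on chromosome 18, so 920 Halo-Sox2M and 12804 Halo-Sox2D peaks entered. Within 1 kb of the outermost start of such a gene lay 108 Halo-Sox2M peaks (11.7%) and 2095 Halo-Sox2D peaks (16.4%), a difference of -4.62 points (-6.65 to -2.30), where such stretches make up 1.26% of length. Within 1 kb of the far end of a gene and not of a start the shares were 2.17 and 2.23%, a difference of -0.0598 points (-0.869 to 1.13). In the promoter windows of all genes in the table, 0.345% of length, lay 63 Halo-Sox2M peaks (6.85%, 5.39 to 8.67%) and 1421 Halo-Sox2D peaks (11.1%, 10.6 to 11.7%), a difference of -4.25 points (-5.81 to -2.36). Halo-Sox2 had 4.10% and endogenous Sox2 2.73% there.

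Around the nearest of all starts that the table gives for protein-coding genes, alternative ones included, peaks of both altered proteins gathered on the upstream side. This larger set of starts had 110 Halo-Sox2M peaks (11.96%) and 2351 Halo-Sox2D peaks (18.4%) within 1 kb. The last 250 bp before the start held 45 Halo-Sox2M peaks (4.89%) and 1028 Halo-Sox2D peaks (8.03%), and the first 250 bp after it 2.50 and 4.02%. The median position of peaks within 1 kb was 43 bp before the start for Halo-Sox2M and 52 bp before it for Halo-Sox2D. The highest step of either profile was the last 250 bp before the start.

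**Figure D3:**
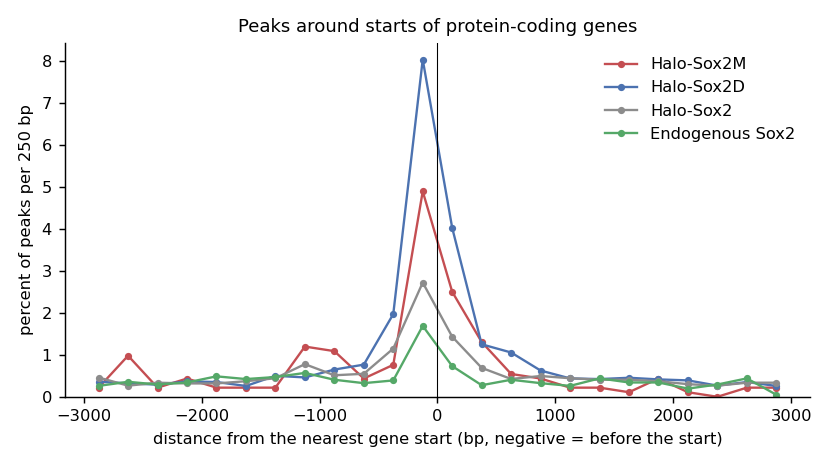
Percent of each library's peaks (vertical axis) in steps of 250 bp by distance from the nearest start of a protein-coding gene (horizontal axis, bp, negative before the start). All 4 lines peak in the last 250 bp before the start, where Halo-Sox2M reaches 4.89% and Halo-Sox2D 8.03%.

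The Sox core was then looked for around promoter peaks. In windows of 51 bases centred on peaks inside the promoter table, ACAAT or ATTGT occurred at 3 of 54 Halo-Sox2M peaks (5.56%, 1.91 to 15.1%) and at 191 of 1261 Halo-Sox2D peaks (15.1%, 13.3 to 17.2%). The same positions in all promoters of the table held it in 6.07 and 6.24% of cases. The difference between the proteins was -9.59 points (-13.8 to 0.142), an interval that reaches 0, and with only 54 Halo-Sox2M peaks its size is poorly known. For Halo-Sox2 the share was 14.8% (10.5 to 20.4%) and for endogenous Sox2 28.9% (22.2 to 36.6%). Halo-Sox2D differed from Halo-Sox2 by 0.351 points (-5.60 to 5.12) and from endogenous Sox2 by -13.7 points (-21.7 to -6.72). The longer form AACAAT, which contains ACAAT, occurred at 1.85% of Halo-Sox2M and 5.63% of Halo-Sox2D peaks (-3.78 points, -5.86 to 4.22).

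Of 3 other promoter words, CCAAT alone had an interval of the difference that left out 0. CCAAT, the box read by NF-Y, occurred on either strand at 1 of 54 Halo-Sox2M peaks (1.85%, 0.328 to 9.77%) and 13.2% of Halo-Sox2D peaks. The difference was -11.4 points (-13.9 to -3.28). The same positions of all promoters held CCAAT in 8.41 and 8.59% of cases, and 8.41% lies inside the Halo-Sox2M interval. GGGCGG, the GC box of Sp factors, occurred at 11.1% of Halo-Sox2M and 21.02% of Halo-Sox2D peaks (-9.90 points, -16.3 to 1.39), against 11.1% for all promoters in both cases. TATAAA, the TATA box, occurred at 0 of 54 Halo-Sox2M peaks and at 0.476% of Halo-Sox2D peaks (-0.476 points, -1.03 to 6.17). The count of 0 allows a share of up to 6.64% by the Wilson interval, or 5.56% by a rule of 3 counts (3 peaks of 54). The windows were of similar base composition, with a mean of 63.2% G or C for Halo-Sox2M and 61.3% for Halo-Sox2D. Whole windows of all promoters had a mean of 53.8%. The shares at the same positions of all promoters, for these words and for ACAAT, were therefore matched for position and not for base composition. CCAAT and ACAAT share their last 4 letters and cannot match at the same position of a strand. A match of letters is a description of the window and not a bound site.

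**Figure D4:**
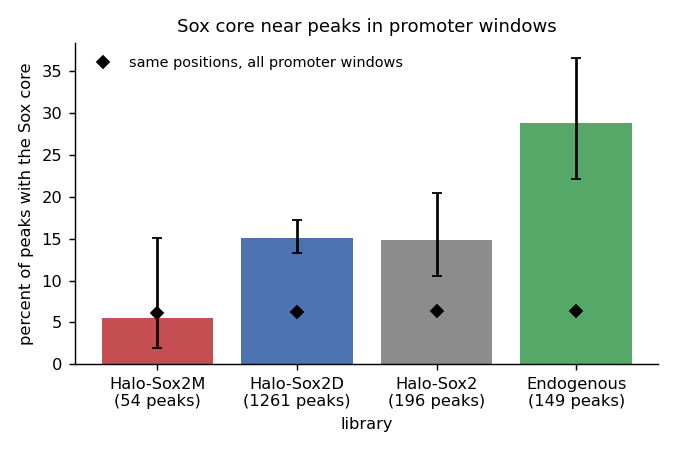
Percent of promoter-window peaks with ACAAT on either strand within 25 bases of the centre (vertical axis), 1 bar per library with 95% Wilson intervals, and diamonds for the same positions in all promoters. The Halo-Sox2M bar (5.56%) stands at its diamond, while the bars of Halo-Sox2D (15.1%), Halo-Sox2 (14.8%) and endogenous Sox2 (28.9%) stand above theirs. The diamonds are not matched for base composition.

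At the level of genes, 1381 of 21887 protein-coding genes had a Halo-Sox2M peak in the gene or within 50 kb (6.31%), and 12627 had a Halo-Sox2D peak (57.7%), beside 32.3% for Halo-Sox2 and 27.3% for endogenous Sox2. Peaks of both were found at 996 genes (4.55%), Halo-Sox2M without Halo-Sox2D at 385 (1.76%) and Halo-Sox2D without Halo-Sox2M at 11631 (53.1%). Of the genes with a Halo-Sox2M peak 72.1% (69.7 to 74.4%) also had a Halo-Sox2D peak, against 56.7% (56.0 to 57.4%) of genes without one. Windows of neighbouring genes overlap, so a peak can count for several genes. With Halo-Sox2D thinned to 954 peaks, 2127 genes are expected to have one (draws 1988 to 2265), which is more than the 1381 of Halo-Sox2M at the same number of peaks. Both proteins are then expected at 214 genes (165 to 262) and Halo-Sox2M without Halo-Sox2D at 1167 (1119 to 1216). In promoter windows 61 of 17492 genes had a Halo-Sox2M peak (0.349%), 1184 a Halo-Sox2D peak (6.77%) and 11 both (0.0629%). These were 2410141K09Rik, Bag1, Cd164, Cep57l1, Cltc, Mfsd12, Nit2, Nme1, Rfx4, Rps9 and Ttc26, all named after their values were seen, and among them only Rfx4 also had an endogenous Sox2 peak there.

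The 5 gene lists hold 152 genes, and 21 had a Halo-Sox2M peak, 122 a Halo-Sox2D peak, 19 both and 28 neither. Of 39 pluripotency genes, 6 had a Halo-Sox2M peak and 37 a Halo-Sox2D peak, and a thinned Halo-Sox2D list gave 9.04 in expectation (draws 1 to 15). Of 30 signalling genes the counts were 4 and 27 (thinned 6.01, 1 to 11). Of 30 neural genes they were 2 and 20 (2.93, 0 to 7), and of 33 chromatin genes 3 and 23 (5.02, 1 to 10). Of 20 housekeeping genes they were 6 and 15 (3.41, 0 to 7). For Halo-Sox2M each list count thus lay inside the range of draws from Halo-Sox2D at equal length. Beside the backgrounds of 6.31 and 57.7%, Halo-Sox2M and Halo-Sox2D had 15.4 and 94.9% of the pluripotency genes, 30 and 75% of the housekeeping genes, and 6.67 and 66.7% of the neural genes.

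**Figure D5:**
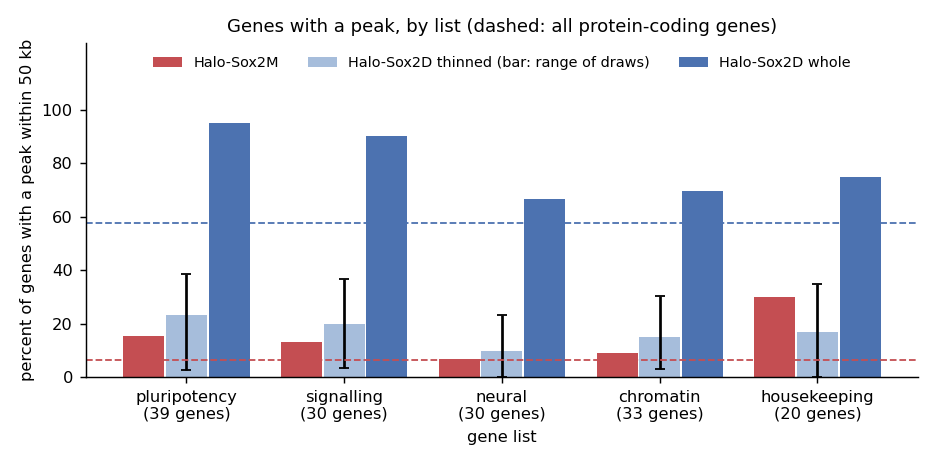
Percent of each list's genes with a peak in the gene or within 50 kb (vertical axis) in the Halo-Sox2M list, in Halo-Sox2D thinned to the same number of peaks (vertical line: range of 100 draws) and in the whole Halo-Sox2D list; dashed lines give all protein-coding genes, 6.31% for Halo-Sox2M and 57.7% for Halo-Sox2D. Every Halo-Sox2M bar lies inside the range of the thinned draws.

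Among the core factors, Sox2 (chromosome 3, 34649995 to 34652461) had 1 Halo-Sox2M and 3 Halo-Sox2D peaks, and 3 Halo-Sox2 and 4 endogenous Sox2 peaks. The Halo-Sox2M peak at 34654028 to 34654036 overlapped the Halo-Sox2D peak at 34654034 to 34654052, with centres 11 bp apart, about 4.04 kb past the gene start and beyond its far end. Pou5f1 had 0 Halo-Sox2M and 7 Halo-Sox2D peaks, and Nanog, a homeobox factor of pluripotency, had 0 and 5. The Halo-Sox2D peak nearest to the Pou5f1 start lay 0.872 kb before it. These genes therefore had Halo-Sox2D peaks throughout, and a Halo-Sox2M peak at Sox2 alone.

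Of the other pluripotency genes, Tcf7l1, a repressor in the Wnt pathway, had 1 Halo-Sox2M and 12 Halo-Sox2D peaks, the closest pair 989 bp apart and about 18 kb before the gene. Klf2, a zinc finger factor of the naive state, had 1 and 6, the closest pair 1620 bp apart. Mtf2, a Polycomb-associated protein, had 1 and 5, both kinds inside the gene and 787 bp apart at the closest. Rif1 and Foxd3, a forkhead factor, had 1 and 1 each, more than 33 kb apart. Within 500 bp of each other the altered proteins thus met at Sox2 alone among these 6 genes. The Halo-Sox2M peaks at Klf2, Mtf2 and Foxd3 had a Halo-Sox2 centre 60, 3 and 51 bp away. Those at Klf2 and Mtf2 also had an endogenous Sox2 centre, 138 and 4 bp away. At Tcf7l1 and Rif1 the Halo-Sox2M peak lay more than 12 kb from either.

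Of the signalling genes, Fgfr2, an FGF receptor, had 2 Halo-Sox2M peaks and 1 Halo-Sox2D peak, all inside the gene about 2 kb past its start (chromosome 7, Halo-Sox2M at 130264831 to 130264837 and 130264889 to 130264896, Halo-Sox2D at 130264770 to 130264772). Their closest centres lay 63 bp apart. Spry4, a feedback inhibitor of receptor tyrosine kinase signalling, had 1 and 10 peaks with a closest distance of 288 bp, and its Halo-Sox2M peak lay inside the gene near the end that borders Arhgap26. Its relative Spry2 had 2 and 9, with 11 Halo-Sox2 and 17 endogenous Sox2 peaks, and its Halo-Sox2M peaks lay 2042 bp or more from any Halo-Sox2D peak. The Halo-Sox2M peak past the far end of Spry2 lay 58 bp from a Halo-Sox2 and 5 bp from an endogenous Sox2 centre. The one inside the gene lay 6588 bp or more from either. Grb2, the adaptor that links receptors to Ras, had 1 and 2.

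Of the neural genes, Meis1, a TALE homeobox factor, had 1 Halo-Sox2M and 1 Halo-Sox2D peak 7473 bp apart, and Ncam1, a cell adhesion molecule, had 2 and 1. Of the chromatin genes, Hdac2, a histone deacetylase, had a Halo-Sox2M peak 152 bp before its start (chromosome 10, 36974138 to 36974153), and the nearest Halo-Sox2D peak lay 363229 bp away. Suz12, a Polycomb subunit, had a Halo-Sox2M peak 47.3 kb past its end and no Halo-Sox2D peak in its window, although the nearest one, outside it, lay only 5608 bp from the Halo-Sox2M peak. Kat5, a histone acetyltransferase, had 1 and 1, 316 bp apart. They lay 37.7 and 37.3 kb before Kat5, and the nearest protein-coding gene to this pair was Rela, 752 bp away. Hdac2 and Suz12 were the list genes with Halo-Sox2M and without Halo-Sox2D.

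The housekeeping genes with Halo-Sox2M peaks all had Halo-Sox2D peaks. Ppia, which encodes cyclophilin A, had 1 and 6, with the Halo-Sox2M peak 380 bp and the closest Halo-Sox2D peak 266 bp past its start. Eef2, a translation elongation factor, had 1 and 3, of which a pair lay 98 bp apart about 7.7 kb before the gene. The nearest protein-coding gene to that pair was Pias4, 1129 bp away. Sdha, a subunit of mitochondrial complex II, had 1 and 1, with centres 15 bp apart and 49.2 kb before the gene, a distance at which other genes lie nearer. Tuba1a had 1 and 8, and Actb 1 and 3.

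Halo-Sox2D peaks without Halo-Sox2M peaks were found at 103 of the 152 list genes (67.8%, 59.97 to 74.7%), against 53.1% of all protein-coding genes. Over all genes of this kind the median number of Halo-Sox2D peaks was 2. Etv5, an ETS factor of the FGF pathway, had 11, of which 10 lay inside the gene and 1 lay 163 bp before its start. Cbx7, a Polycomb reader, Lefty2, a Nodal antagonist, and Trim28 had 8 each. The counts were 7 at Dnmt1 (the maintenance DNA methyltransferase), Fgfr1, Id1 (an inhibitor of bHLH factors and a BMP target), Jarid2, Mbd3 (a NuRD subunit) and Pou5f1. These genes were picked for their high counts, and the 13.9-fold difference in length between the lists applies to each of them.

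Ends of protein-coding genes with Halo-Sox2M and Halo-Sox2D centres within 500 bp of each other were found at 33 of 21887 genes. Most peaks were found at Arhgap26, with 2 and 25, where the close pair is the one already given for its neighbour Spry4. Gm40469, which lies in the chromosome 8 stretch with several shared sites, had 7 and 10, with a pair inside the gene 5 bp apart. Others were Ywhag, a 14-3-3 protein gene, with 1 Halo-Sox2M and 11 Halo-Sox2D peaks. There the Halo-Sox2M peak lay 77 bp and the closest Halo-Sox2D peak 9 bp past the start. Ilf2, which encodes an RNA-binding protein, had 1 and 9, with the Halo-Sox2M peak 311 bp before the start and inside a tRNA gene, n-TMcat11 (chromosome 3, 90475860 to 90475931). Fxr2, a relative of the fragile X protein gene, had 1 and 8, and Mfsd12 1 and 8. Several were neighbouring pairs that share a peak: Afmid and Tk1 (thymidine kinase) had 1 and 6 each, and Lamtor2 and Ubqln4 had 1 Halo-Sox2M peak each with 5 and 6 Halo-Sox2D peaks. Nacc2 and Rfx4 had 1 and 5 each, and at Nacc2 the pair lay at the far end of the gene, 89 bp apart.

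The genes with most Halo-Sox2M peaks were of another kind. Mrgprd and Mrgprf, neighbouring genes of Mas-related receptors, had the same 12 peaks, a cluster 16.9 to 17.4 kb past the end of Mrgprd. Each also had 2 Halo-Sox2D, 5 Halo-Sox2 and 0 endogenous Sox2 peaks. Gm13271, Gm13272, Gm13275, Gm13276, Gm13277, Gm13278, Gm13279 and Gm13283, a tandem cluster on chromosome 4, had 10 each, the same peaks seen from each gene, beside 2 Halo-Sox2D, 7 Halo-Sox2 and 0 endogenous Sox2 peaks. All 10 were 7 bp wide, and 6 of the 9 gaps between them measured 2.91 to 2.94 kb. In 5 promoter windows of this cluster the sequence around the peak was the same letter for letter, shown here from Gm13276 (chr4:88784814-88784853, plus strand) with the peak in capitals.
Gm13276: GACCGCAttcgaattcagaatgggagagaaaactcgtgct
The peak lay at -240 to -234 from the start in Gm13276, Gm13277, Gm13278 and Gm13288, and at -150 to -144 in Gm13275. Of the peaks that lay with 10 flanking bases on either side whole inside a promoter window, which leaves out peaks at the edges, 5 of 60 from Halo-Sox2M (8.33%) had a sequence copy among the peaks of their list, against 2 of 1335 from Halo-Sox2D (0.150%). How reads that map to several copies were placed is not given in the sources used here, and its part in these peaks was not tested. Of genes with Halo-Sox2M peaks and no Halo-Sox2D peak, Hrh1, a histamine receptor gene, and Gm14496 had 7. Ifna5, an interferon gene next to the chromosome 4 cluster, Rex2 and Tmem196 had 6. Gm2237, Gm2244, Gm31035, Gm5458 and Wls, the carrier of Wnt proteins, had 5. At Hrh1 the Halo-Sox2M peaks lay 16.7 to 47.9 kb past the end, 6 of them 9 bp wide. Hrh1 had 0 Halo-Sox2 peaks and 1 endogenous Sox2 peak. The other genes named here without Halo-Sox2D peaks had 2 to 6 Halo-Sox2 peaks, the most at Rex2, which also had 7 endogenous Sox2 peaks. Tmem196, Gm2237, Gm2244 and Gm5458 had 0 endogenous Sox2 peaks. Of all 385 genes with Halo-Sox2M and without Halo-Sox2D, 190 (49.4%, 44.4 to 54.3%) had a Halo-Sox2 or endogenous Sox2 peak, near the 44.2% (43.6 to 44.9%) of all protein-coding genes. Of the 996 genes with both altered proteins 768 did (77.1%, 74.4 to 79.6%).

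Genes of tRNAs and of small nuclear RNAs made up a larger part of the Halo-Sox2M list, while for genes of snoRNAs and miRNAs the interval of the difference included 0. Within 1 kb of a tRNA gene lay 27 Halo-Sox2M peaks (2.83%) and 92 Halo-Sox2D peaks (0.695%), a difference of 2.14 points (1.24 to 3.40), where such stretches make up 0.0248% of length. Halo-Sox2 had 0.944% and endogenous Sox2 0.361%. The Halo-Sox2M peaks reached 51 of 408 tRNA genes and the Halo-Sox2D peaks 102, and 17 of the 51 (33.3%) had both. Within 1 kb of genes of small nuclear RNAs, parts of the spliceosome and related particles, lay 17 Halo-Sox2M peaks (1.78%) and 26 Halo-Sox2D peaks (0.196%), a difference of 1.59 points (0.913 to 2.64). These lay at 15 and 18 of 1004 genes, and 3 of the 15 also had Halo-Sox2D. Among the genes that the annotation puts in this class, named after their values were seen, were Rnu2-10 (a U2 gene) and Rnu11. Near snoRNA genes lay 0.105% of Halo-Sox2M and 0.219% of Halo-Sox2D peaks (-0.114 points, -0.243 to 0.377), and near miRNA genes 0.314 and 0.363% (-0.0480 points, -0.287 to 0.564). With bins of 5 or more peaks dropped, 8 of 713 Halo-Sox2M peaks (1.12%) and 42 of 10618 Halo-Sox2D peaks (0.396%) lay near tRNA genes. The difference was 0.726 points (0.157 to 1.81). Near small nuclear RNA genes lay 5 Halo-Sox2M peaks (0.701%) and 14 Halo-Sox2D peaks (0.132%), a difference of 0.569 points (0.158 to 1.50). Genes of both classes exist in many similar copies, and the part of this in their shares was not tested.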

How the data were processed

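ChIP-exo peak lists of 4 libraries, 1 per group, were analysed. The submitters' processing notes name Bowtie2 and the build mm10. Aligner version, peak caller, threshold and the treatment of multi-mapping reads were not given in the sources used here. Each list as deposited by the authors holds chromosome, start and end of every peak and no score, signal or read number.

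The members, gene lists, motifs and thresholds were chosen with earlier results of these data known. Peaks were kept outside mitochondrial, unplaced and random sequence and outside 100-kb bins with 15 or more peaks in any list. Sharing meant centres within 500 bp. Gene positions came from RefSeq GRCm38.p6 (21887 protein-coding of 49943 genes), and strand and sequence from its promoter table (32851 windows of 300 bp, none on chromosome 18). Motif windows of 51 bases had to lie whole within the table. Thinned values are exact expectations, with 100 seeded draws for their range. With 1 library per group no test was run. Named genes were Sox2, Pou5f1 and Nanog, every list gene with a Halo-Sox2M peak, up to 15 genes with both proteins within 500 bp at 1 gene end, the 10 with most Halo-Sox2M peaks, the 10 list genes with most Halo-Sox2D and no Halo-Sox2M peaks, and the 10 with most Halo-Sox2M and no Halo-Sox2D peaks. A gene that met this rule is not reported here. Python 3.11.15, numpy 2.4.6, pandas 2.3.3 and scipy 1.17.1 were used; the overlaps were checked with bedtools 2.31.1, which gave the same 20 and 19 peaks, and the code was tested on simulated data. Alternatives covered the dense-bin threshold, joining of peaks, thinning, the criterion for sharing, the gene window, the gene ends and, added after seeing the data, the motif window.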

Additional observations from a re-analysis of the deposited data

How the results depend on the processing

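Of 69 recomputed values, 39 stayed within the 95% interval of the reported share or difference, or within 1.5 times the reported count of genes. The other 30 fell outside, and 0 changed sign, which only the differences could do. Some of the 39 were fixed in advance. Thinning leaves unchanged, by construction, the share of Halo-Sox2D peaks near Halo-Sox2M and the number of genes with a Halo-Sox2M peak. The same holds for the differences at gene ends and inside genes. Joining peaks within 100 bp left the gene counts at 1381, 12627 and 385, and it can hardly move a peak out of a 50-kb window. The share of Halo-Sox2M peaks near Halo-Sox2D was 9.68% with bins of 5 or more peaks dropped, 16.5% with bins of 30 or more dropped and 31.9% with no bin dropped. It was 1.68% against the thinned Halo-Sox2D list, 2.10% by 1-bp overlap, 1.05% by reciprocal overlap of 50%, and 5.77, 10.3 and 15.3% for centres within 50, 200 and 1000 bp. The share of Halo-Sox2D peaks near Halo-Sox2M was 0.725, 1.57 and 2.90% for the same 3 bin settings and 0.882% with peaks within 100 bp joined. By overlap it was 0.143 and 0.0755%, and by centres 0.559, 0.982 and 1.47%. The difference at gene ends was -10.3 points with no bin dropped, -8.35 points within 5 kb and -2.28 points for all annotated genes. Inside genes it was -15.5 points with bins of 5 or more peaks dropped and -26.7 points with none dropped. Genes with a Halo-Sox2M peak numbered 787 within 20 kb, 2154 within 100 kb and 720 by nearest gene. Genes with a Halo-Sox2D peak numbered 2127 after thinning and 7099 by nearest gene, and genes with Halo-Sox2M alone 1167 after thinning. The difference for ACAAT was -19.6 points (-22.1 to -11.1) with 50 bases either side of the centre, added after seeing the data. There 0 of 43 Halo-Sox2M peaks held it. By a rule of 3 counts and not by the Wilson interval, this allows a share of up to 6.98% (3 peaks of 43, counting error only). Except where fewer peaks enter by construction, the cause of these shifts was not tested.

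Depth is unknown, and the lists hold no score, so no stricter peak threshold was run. Neither an input nor a resin-only control was analysed here. No paired analysis was possible because each group is 1 library. Leaving out a replicate was likewise not possible.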

Other observations

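Chromosomes did not take equal parts in the lists. The X chromosome makes up 6.28% of the length and held 25 Halo-Sox2M peaks (2.62%, 1.78 to 3.84%) and 109 Halo-Sox2D peaks (0.823%, 0.683 to 0.992%), with 1.96% for Halo-Sox2 and 1.24% for endogenous Sox2. Chromosome 9, 4.57% of the length, held 2.83% of Halo-Sox2M peaks (1.95 to 4.09%) and 5.88% of Halo-Sox2D peaks (5.49 to 6.29%). Chromosome 14, 4.58% of the length, held 109 Halo-Sox2M peaks (11.4%, 9.56 to 13.6%) and 4.33% of Halo-Sox2D peaks (3.99 to 4.69%). The shares there were 6.38% for Halo-Sox2 and 4.87% for endogenous Sox2. Gm2237, Gm2244, Gm31035 and Gm5458 lie on chromosome 14, as does a dropped dense bin. Pseudogenes had a peak centre within 1 kb for 3.25% of Halo-Sox2M and 1.29% of Halo-Sox2D peaks, a difference of 1.96 points (0.985 to 3.30). Genes of long non-coding RNAs had one for 12.4% of Halo-Sox2M and 14.6% of Halo-Sox2D peaks, a difference of -2.18 points (-4.22 to 0.133). These chromosomes and classes were picked after their values were seen. A median of 17.7 kb was found for the length of genes with both proteins, 21.4 kb for those with Halo-Sox2M alone, 20.4 kb for those with Halo-Sox2D alone and 12.4 kb for those with neither.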
